A study of Homo sapiens with 2 samples.

Results

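The genes described here are 7 targets and feedback regulators of WNT/beta-catenin signalling, SP5, AXIN2, DKK4, APCDD1, TCF7, CDX1 and MYC. They were taken by symbol from the authors' deposited table, and all 7 have a row among its 2005 genes. HES2, an established human embryonic stem cell line, was infected with a lentivirus carrying either a scramble control sequence or an shRNA (a short hairpin RNA that triggers knockdown) for TFCP2L1, a CP2-family transcription factor studied in pluripotent cells. Both cultures were grown over 3 passages in 10% KSR (a serum replacement) with Activin A and FGF2, each at 10 ng/ml, so the scramble cells carried a lentivirus and received the same factors. There was 1 library per group, total RNA was sequenced once from each, and every difference below is between 2 libraries, with no replicate check and no test between conditions. How many hairpins were used and which promoter drives them is not given in the sources used here.

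In the canonical WNT pathway, a ligand binds a Frizzled receptor with an LRP co-receptor, the complex that destroys beta-catenin is held back, and beta-catenin enters the nucleus to act with TCF/LEF factors on its target genes. Several targets encode proteins that damp the same pathway, which makes them feedback genes: AXIN2 is a scaffold of the destruction complex, DKK4 is a secreted Dickkopf protein of the family that blocks LRP co-receptors, and APCDD1 is a membrane inhibitor. In the early embryo this pathway is known for its part in forming the primitive streak and the posterior body axis, and pluripotent cells are known to respond to it.

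Among the members with a promoter window, SP5 held the most matches to a TCF/LEF-type motif, so its upstream sequence is shown with those of TCF7 and APCDD1 for contrast. The RefSeq promoter table (GRCh38.p14) held windows for 3 of the 7 members, SP5, APCDD1 and TCF7, the last with 2 starts. Each window runs from 250 bases before to 50 bases after a transcript start, and the 250 bases before the start are printed 5′ to 3′ on the gene's strand. Capitals mark CTTTGNN with A or T at both last positions (4 forms, CTTTGAT among them), on either strand, so that a match on the other strand is printed as its reverse complement. The SP5 stretch is chr2:170715087-170715336, the TCF7 stretch lies before its downstream start at chr5:134123368-134123617, and the APCDD1 stretch is chr18:10454385-10454634, all on the plus strand.
SP5: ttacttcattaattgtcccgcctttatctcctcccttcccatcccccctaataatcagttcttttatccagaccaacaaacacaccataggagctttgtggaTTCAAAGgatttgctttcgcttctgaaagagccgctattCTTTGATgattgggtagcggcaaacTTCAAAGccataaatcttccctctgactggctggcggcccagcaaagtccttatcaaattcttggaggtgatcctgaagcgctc
TCF7: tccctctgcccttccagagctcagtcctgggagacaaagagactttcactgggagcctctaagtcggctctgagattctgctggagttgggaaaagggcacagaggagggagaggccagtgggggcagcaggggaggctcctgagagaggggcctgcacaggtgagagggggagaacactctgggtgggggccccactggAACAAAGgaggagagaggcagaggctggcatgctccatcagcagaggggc
APCDD1: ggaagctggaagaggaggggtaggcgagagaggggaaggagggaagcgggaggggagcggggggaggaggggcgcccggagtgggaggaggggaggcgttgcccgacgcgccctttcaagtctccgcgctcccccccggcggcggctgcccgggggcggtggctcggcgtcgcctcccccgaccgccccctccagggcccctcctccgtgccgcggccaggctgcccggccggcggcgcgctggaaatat

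The SP5 stretch held 1 CTTTGAT, beginning 109 bases before the start, and 2 copies of CTTTGAA on the other strand, whose windows begin 148 and 84 bases before it. No 2 matches overlap. The TCF7 stretch shown held 1 CTTTGTT on the reverse strand, 50 bases before the start, and the windows of APCDD1 and of the upstream TCF7 start held none of the 4 forms. CTTTGAT occurred in 2.62% of all 35116 windows of 300 bases in the table, and any of the 4 forms in 13.8%. A window with 3 or more of the 4 forms, a property singled out after the SP5 window was seen, occurred in 0.179% (63 windows). Base composition differs between the stretches: GC made up 45.6% of the SP5 stretch, 62.0% and 70.8% of the TCF7 stretches and 77.2% of that of APCDD1. A match describes letters and is no measured site of binding.

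**Figure D1:**
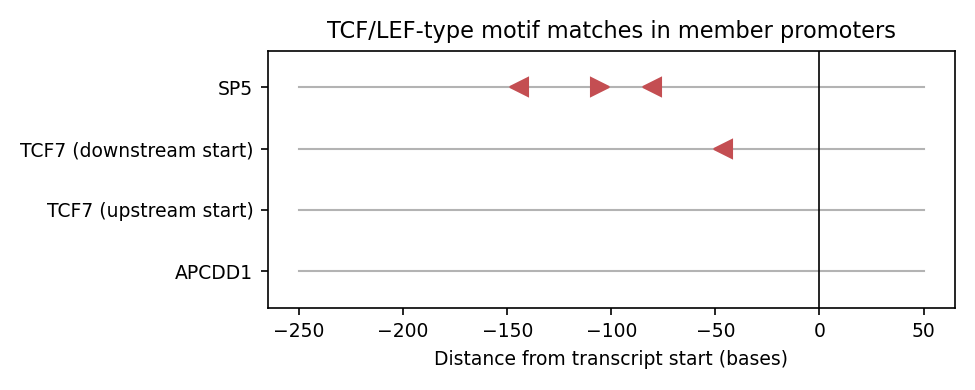
Matches to CTTTGNN, with A or T at both last positions, in the 4 promoter windows of members, by distance in bases from the transcript start; triangles point right for the gene's strand and left for the other. SP5 has 3 matches between 148 and 84 bases before the start, and TCF7 has 1 at its downstream start.

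The levels are read as FPKM, that is, reads scaled by gene length and by library size, so they may be compared between genes. The targeted gene, TFCP2L1, was at 3.19 FPKM (scramble) and 0.33 FPKM (knockdown), 9.70-fold lower by inferred reads (interval 7.56 to 12.6). Depth, inferred from the deposited levels and p-values, was about 23430000 reads for the scramble library and 22690000 for the knockdown library. The 95% intervals are exact (Clopper-Pearson) and hold counting error alone. Ratios are knockdown over scramble. Log2 ratios carry a pseudocount of 0.1 FPKM, which makes the ratio of a gene at a low level smaller than that of its deposited levels. For DKK4 the log2 ratio of 7.94 was still above the 7.34 from inferred reads, where 0 scramble reads were taken as 3. The authors' deposited table holds only genes with a log2 ratio of at least 1 in size and a false discovery rate of at most 0.000990, so shares of listed genes describe an already selected set.

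Of the 7 members, 6 were at least 2-fold higher in the knockdown library and 1, MYC, was at least 2-fold lower. All 7 reached 1 FPKM in a library, 4 of them with scramble and 7 with the knockdown. Of the 1587 listed genes that reached it, 51.6% were 2-fold or more higher and 44.7% were 2-fold or more lower. At least 4-fold higher were 4 members, SP5, DKK4, CDX1 and APCDD1, beside 15.1% of the listed genes. No member was at least 4-fold lower, beside 6.74% of the listed genes. Over the 7 members the median log2 ratio came to 4.17, and to 1.01 over all 2005 listed genes. Every listed gene has a deposited log2 ratio of at least 1 in size, so the second median mainly reflects the share that were higher. It is no typical background shift. In bulk RNA, more cells that carry a transcript and more transcript per cell cannot be told apart.

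With levels scaled to equal sums over the listed genes, the median log2 ratio of all listed genes moved by -0.54, and 34.9% rather than 53.6% of the genes past 2-fold were the higher ones. No member changed direction under that scaling, and none could, since every listed gene differs at least 2-fold as deposited and the factor was 0.677. AXIN2 (log2 ratio 0.81) and TCF7 (0.55) were then under 2-fold, which left 4 members at least 2-fold higher. The sums run only over genes already selected for a difference, so the scale factor (0.677) is set by those differences and is no measure of depth.

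**Figure D2:**
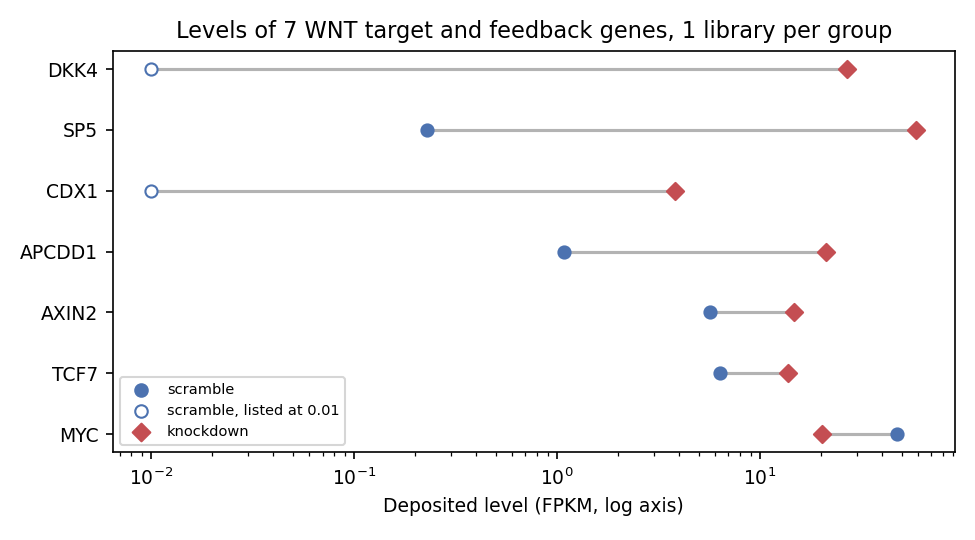
Deposited level of each member in FPKM on a log axis, a circle for the scramble library and a diamond for the knockdown library, with an open circle where the scramble level is listed at 0.01. The diamonds lie to the right of the circles for 6 genes and to the left for MYC.

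The 3 feedback inhibitors were all higher in the knockdown library, from very different scramble levels. AXIN2 (gene ID 8313), the scaffold that limits beta-catenin, was at 5.67 FPKM in scramble cells and 14.8 FPKM in knockdown cells. The reads inferred for it, 584 and 1473, gave a ratio of 2.61 (interval 2.37 to 2.88). It was readily detected without the knockdown, and the interval lies wholly above 2, as it does for 37.6% of the listed genes that reached 1 FPKM. Of the 31-base words of its longest GENCODE transcript, 30.7% also occur in another annotated gene, chiefly AC004805.1, so the AXIN2 level is uncertain as to how shared reads were assigned.

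DKK4 (gene ID 27121), the secreted inhibitor, is listed at 0.01 FPKM for scramble and at 26.9 FPKM for knockdown. The inferred reads were 0 and 471. Set against 3 reads as the floor of a library, which is 0.166 FPKM for this gene, DKK4 was 162-fold higher. Its interval was computed from the 0 scramble reads rather than from the floor, and runs from 132 upward, so it begins below that ratio. The scramble level was therefore not distinguishable from 0 at this depth. CDX1 is the other member with 0 scramble reads, and 1.2% of the listed genes that reached 1 FPKM had none. No 31-base word of the DKK4 transcript occurred in another gene.

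APCDD1 (gene ID 147495), the membrane inhibitor, was at 1.09 and 21.3 FPKM, on 64 and 1216 inferred reads. The ratio was 19.7 (interval 15.3 to 25.7). Its ratio lay between those of AXIN2 and DKK4, and unlike DKK4 it had scramble reads to measure the ratio by. In the knockdown library the 3 inhibitors were within a narrow range, 14.8 FPKM for AXIN2, 21.3 FPKM for APCDD1 and 26.9 FPKM for DKK4, while in the scramble library AXIN2 alone was above 2 FPKM.

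TCF7 (gene ID 6932) encodes TCF1, a DNA-binding partner of beta-catenin, and was the higher member with the smallest ratio. Its levels were 6.34 FPKM (scramble) and 13.8 FPKM (knockdown), a log2 ratio of 1.11. The ratio of inferred reads was 2.18 (interval 1.94 to 2.46), so the interval reaches below 2. GENCODE lists 24 transcripts of TCF7, more than of any other member, and the table gives 1 level for the gene, so isoforms with and without the beta-catenin binding part are not separated. The deposited level and length would give 543 and 1145 reads, whereas the deposited p-value matches 421 and 888 at the same ratio, and the interval above uses the smaller pair.

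AXIN2 and TCF7 were the closest pair of members. Their distance was 0.19 on log2(FPKM + 0.1) over the 2 libraries, and the next closest pair, SP5 and DKK4, were 1.95 apart.

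SP5 (gene ID 389058), a zinc finger transcription factor of the SP family and a direct target of the pathway, had the highest knockdown level of the 7. Its levels were 0.23 FPKM (scramble) and 59.2 FPKM (knockdown), on about 10 and 2550 reads taken from the levels. The ratio was 264 (interval 143 to 551), and the width of the interval comes from the 10 scramble reads. Among all listed genes SP5 ranked 1709 by scramble level and 54 by knockdown level. By log2 ratio it was at rank 9 of 2005, behind DKK4 at rank 4 and ahead of CDX1 at rank 28 and APCDD1 at rank 55. AXIN2 and TCF7 were at ranks 634 and 876. The order of SP5 and DKK4 depended on the setting. The log2 ratio of SP5 was above that of DKK4 by inferred reads (8.04 and 7.34) and with a pseudocount of 1 FPKM (5.61 and 4.79). It was below with a pseudocount of 0.01 FPKM (7.95 and 10.4), as deposited (8.01 and 11.4) and with equal sums (6.93 and 7.38).

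CDX1 (gene ID 1044), a caudal-type homeobox factor of the posterior axis, is listed at 0.01 FPKM for scramble and at 3.82 FPKM for knockdown. With 0 and 149 inferred reads it was 51.4-fold higher against the same floor of 3 reads (0.0750 FPKM for CDX1). The interval, again computed from the 0 scramble reads, runs from 41.3 upward. Its knockdown level was the lowest of the 7, 3.82 FPKM beside 13.8 FPKM for TCF7, the next.

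MYC (gene ID 4609), a growth-promoting transcription factor and a known WNT target in colon cells, was the member that was lower. Its level was 47.2 FPKM in scramble cells and 20.4 FPKM in knockdown cells, on 2552 and 1066 inferred reads. That made it 2.31-fold lower (interval 2.15 to 2.49), and the interval lies wholly beyond 2-fold. MYC was the most abundant member in the scramble library, where it made up 77.9% of the summed FPKM of the 7, and with 20.4 FPKM it was below SP5, DKK4 and APCDD1 in the knockdown library, where it made up 12.7%. SP5 made up 0.380% and 36.9% of the same sums, which were 60.5 and 160 FPKM.

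**Figure D3:**
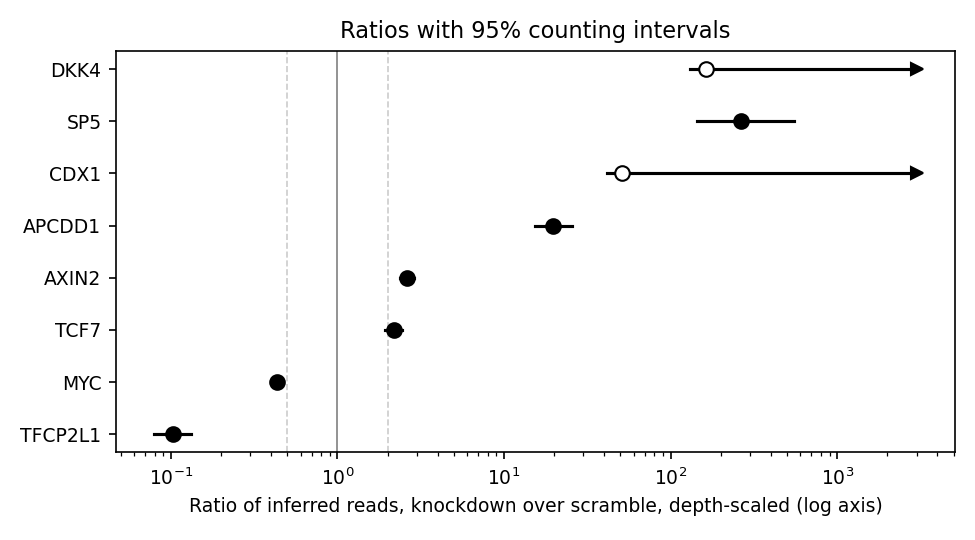
Ratio of inferred reads, knockdown over scramble, on a log axis for the 7 members and TFCP2L1, with exact 95% counting intervals; open circles are ratios against the floor of 3 reads, arrows mark intervals with no upper limit, and dashed lines mark 2-fold. The interval of TCF7 crosses the 2-fold line, those of DKK4, SP5, CDX1, APCDD1 and AXIN2 lie above it, and those of MYC and TFCP2L1 lie below the lower line.

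On the scale of FPKM differences the order was not that of the ratios. SP5 differed by 59.0 FPKM (knockdown minus scramble), DKK4 by 26.9, APCDD1 by 20.2, AXIN2 by 9.11, TCF7 by 7.46 and CDX1 by 3.81, while MYC differed by -26.8 FPKM. CDX1 had a larger ratio than AXIN2 and TCF7 and a smaller difference than either.

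**Figure D4:**
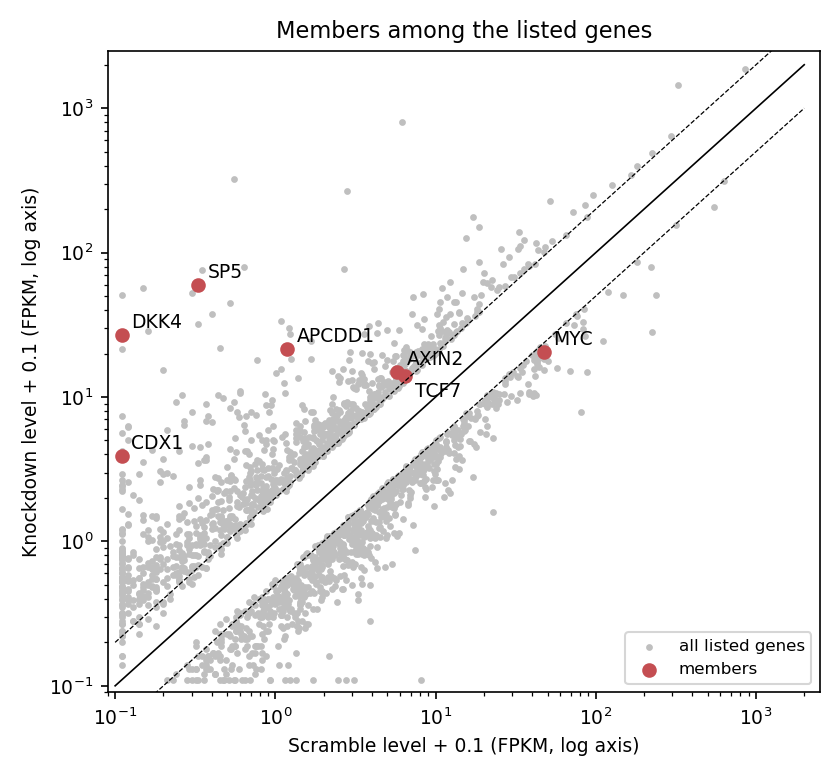
Knockdown against scramble level plus 0.1 FPKM on log axes for the 2005 listed genes (grey) and the 7 members (red), with the solid line at equal levels and dashed lines at 2-fold. SP5, DKK4, CDX1 and APCDD1 lie far above the upper dashed line, AXIN2 and TCF7 near it, and MYC just below the lower one.

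For each member the nearest listed genes by level in the 2 libraries were found on log2(FPKM + 0.1). The nearest to SP5 were LHX1 (0.20 and 52.8 FPKM, distance 0.22) and EOMES (0.25 and 76.0 FPKM, distance 0.37), and the nearest to DKK4 was SOX17 (listed at 0.01 and at 26.6 FPKM, distance 0.02). APCDD1 was nearest to BGN and CXCR4 (1.13 and 27.3 FPKM), and CDX1 to GATA6-AS1 (listed at 0.01 and at 4.16 FPKM). AXIN2 was nearest to HAS3 (5.70 and 15.3 FPKM), TCF7 to GAS2L1 (6.27 and 13.6 FPKM) and MYC to CDCA7L (43.3 and 20.9 FPKM). With 2 libraries, likeness means only that both levels were close.

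For 4 members, 1 relative each on the fixed lists had a row and was compared, and all 4 were higher in the knockdown library, at unequal levels. Relatives by name outside those lists went both ways. DKKL1, of the Dickkopf-like name, was lower at 2.59 and 1.01 FPKM, and APCDD1L was higher at 0.86 and 4.96 FPKM. DKK1, the relative of DKK4 that blocks LRP5 and LRP6, was at 0.10 and 15.4 FPKM, on 4 and 610 inferred reads (ratio 158, interval 61.3 to 581). CDX4 was at 0.76 and 10.3 FPKM (ratio 13.7, interval 7.99 to 25.6), which put it 2.70 times above CDX1 in the knockdown library. LEF1, the TCF/LEF factor with a row beside TCF7, was at 0.19 and 1.02 FPKM, so that TCF7 was 13.5 times above it in the knockdown library. SP8 was at 0.48 and 1.66 FPKM, and SP5 was 35.7 times above it. Of 39 HOX genes, the family that CDX factors are known to regulate, HOXB2 was the 1 with a row, at 0.08 and 0.54 FPKM.

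MYC partners and targets had few rows. Of 13 genes of the MYC family and its partners, MXD1, an antagonist that competes for MAX, had a row and was lower, at 1.57 and 0.71 FPKM. Of 25 genes known as MYC targets, 2 had a row. ODC1, the first enzyme of polyamine synthesis, was higher at 42.3 and 116 FPKM (ratio 2.76, interval 2.62 to 2.90), and TERT, the telomerase reverse transcriptase, was lower at 8.39 and 3.09 FPKM (ratio 0.368, interval 0.320 to 0.423).

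Outside the 7 members, 106 genes of the pathway stood on 7 lists of ligands, receptors, the R-spondin axis, inhibitors, intracellular and nuclear components and targets. Of these 29 had a row, 24 higher and 5 lower, beside 54.1% higher and 45.9% lower among all 2005 listed genes. Counting those that reached 1 FPKM, 19 were 2-fold or more higher and 2 were 2-fold or more lower. Among the 1587 listed genes that reached it, 51.6% were 2-fold or more higher and 44.7% lower. Over all 29 genes with a row, the median log2 ratio was 1.91. The ligands and receptors with a row included WNT3 (5.50 and 19.2 FPKM), WNT8A (0.16 and 10.3 FPKM), FZD2 (4.05 and 15.5 FPKM) and FZD8 (3.21 and 13.1 FPKM), all higher, and WNT8B (1.00 and 0.21 FPKM), which was lower.

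Of the 22 further targets, 11 had a row and all 11 were higher, beside 54.1% of all 2005 listed genes. At 1 FPKM or more, 9 of them were at least 2-fold higher, beside 51.6% of the listed genes that reached it. The other 11 targets are not among the listed genes, and their levels were not analysed here. CCND1, the cyclin of the G1 phase, was at 19.0 and 50.7 FPKM (ratio 2.67, interval 2.54 to 2.82). TNFRSF19, a receptor of the TNF family, was at 0.08 and 1.41 FPKM (ratio 17.3, interval 8.54 to 41.0). LGR5, the R-spondin receptor, was at 1.03 FPKM in the knockdown library on 108 reads and had 1 scramble read (ratio 112, interval 19.6 to 4452). CD44 was at 3.66 and 7.49 FPKM, with a ratio of 2.05 whose interval (1.83 to 2.30) reaches below 2. Among the targets with scramble reads, ratios ran from 2.05 for CD44 to 158 for DKK1.

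Of the inhibitors outside the members 5 had a row, 3 higher and 2 lower, beside 54.1% higher among all 2005 listed genes. The higher ones were CER1, FRZB and DKK1, the last at 0.10 and 15.4 FPKM. CER1, a secreted antagonist of NODAL, BMP and WNT, was at 6.11 and 799 FPKM, and FRZB, a secreted Frizzled-like protein, was at 0.08 and 0.68 FPKM. SFRP5, another secreted Frizzled-like inhibitor, was lower at 4.77 and 0.95 FPKM (ratio 0.199, interval 0.137 to 0.281), as was WIF1 at 0.75 and 0.24 FPKM. Of 17 genes of beta-catenin and its destruction complex, none is among the listed genes, and their levels were not analysed here.

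**Figure D5:**
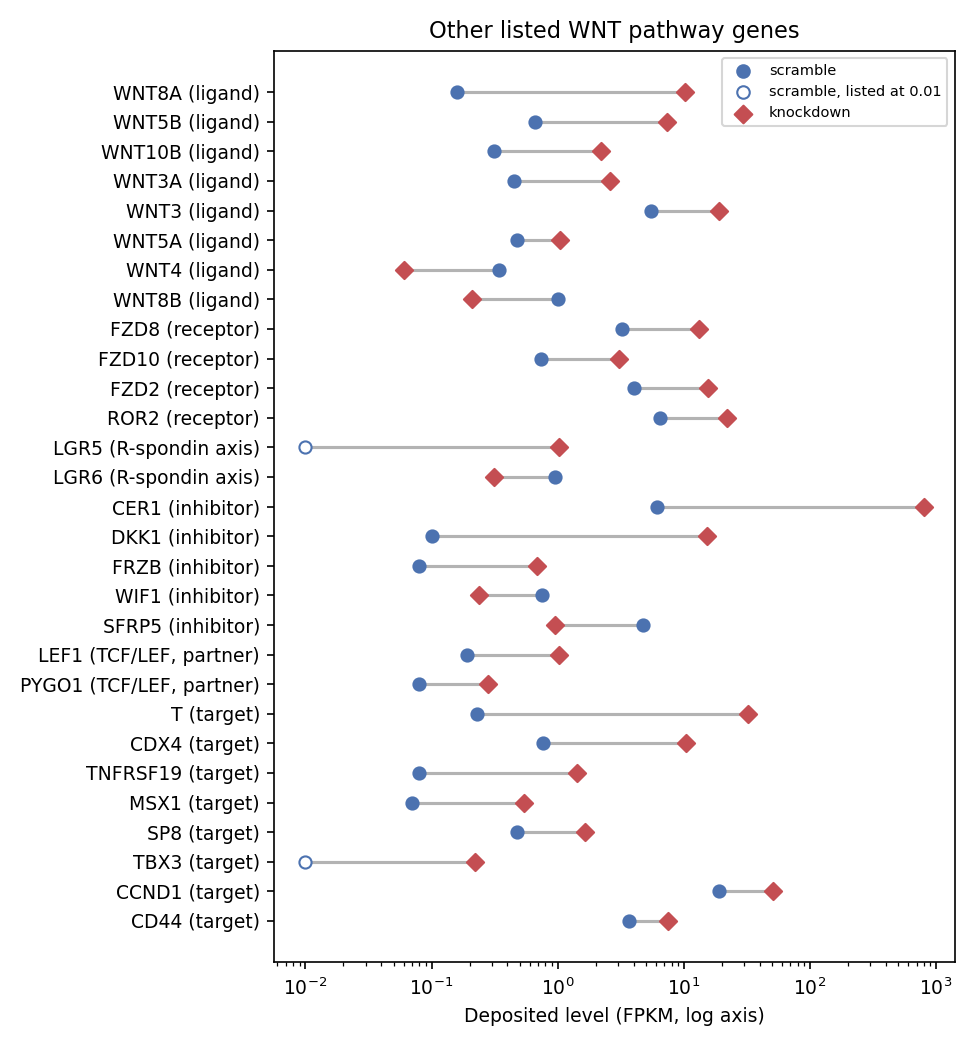
Deposited levels in FPKM on a log axis of the 29 listed WNT pathway genes that are not members, grouped by role, with circles for the scramble and diamonds for the knockdown library (open circles, scramble level listed at 0.01). Diamonds lie to the right for 24 genes and to the left for WNT4, WNT8B, LGR6, WIF1 and SFRP5.

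The annotation in the authors' deposited table gives a Wnt term to 4 members, AXIN2, DKK4, APCDD1 and MYC, and not to SP5, TCF7 or CDX1. It gives one to 42 listed genes in all, of which 31 (73.8%) were higher, beside 54.1% of all 2005 listed genes. Without the members it gives one to 38, of which 28 were higher and 10 lower. This grouping was looked at after the values were seen.

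Markers of other cell states differed between the same libraries. Of 10 primitive streak markers 8 had a row, all higher, with levels that summed to 31.7 FPKM (scramble) and 606 FPKM (knockdown). All 8 definitive endoderm markers had a row and were higher, with sums of 8.53 and 958 FPKM. CER1 alone made up 6.11 and 799 FPKM of these sums. SOX17 alone was listed at 0.01 in the scramble library. Among all 2005 listed genes, 54.1% were higher and 45.9% lower. Of 15 markers of human embryonic stem cells 5 had a row, all lower, with sums of 542 and 201 FPKM, so that SOX2, PODXL, PRDM14, UTF1 and TERT were well detected in both libraries. Neuroectoderm markers had 3 of 7 higher and 1 lower, fibroblast markers 1 of 8 higher and 1 lower, and none of 6 trophectoderm markers had a row. T, WNT3 and CER1 stand both on these marker lists and on the pathway lists, and FOXA2 is in both the primitive streak and the endoderm sums. The part of these cell states in the member levels was not tested, and with 1 library per group a difference between cultures cannot be told apart from the shRNA.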

How the data were processed

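RNA of 1 scramble and 1 knockdown library of HES2 cells, taken from 1 table of the whole series, was compared, grouped by the labelled infection. Per the labels' protocols, a BGISEQ-500 was used, and the submitters' processing notes name hg19 and Bowtie 0.12.2. Neither the quantifier nor the test nor the strand setting is given in the sources used here. The authors deposited levels, read here as FPKM because they scale with reads per kilobase (RPKM and FPKM cannot be told apart), with a lowest value of 0.01, and also a log2 ratio, a p-value and a false discovery rate per gene, per the file headers.

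Reads were inferred, since the table holds no counts. Whole-read pairs were sought that match both levels and the deposited p-value under the Audic-Claverie Poisson test, taken two-sided by doubling, to within 0.0002 in ln p. A pair was found for 1157 (60.1%) of the 1926 genes whose p-value is not printed as 0, among them DKK4, CDX1, APCDD1, MYC and TFCP2L1. For 713 genes, AXIN2 and TCF7 among them, the level ratio was kept and the total set by the p-value, and for 135, SP5 among them, reads came from the levels. Tested on simulated data of 2005 genes, 99.6% of 1831 genes got a pair, all of them the pairs drawn. Over 200 changed genes, 96.5% of intervals held the true ratio. Those intervals were computed from the drawn reads, so this share does not test intervals on inferred reads. Without molecular identifiers reads are not independent molecules. The simulation assumed whole reads and a single length per gene.

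Genes past 2-fold were counted where a library reached 1 FPKM. No p-value was computed between conditions. The members and lists were chosen with earlier results of these data known. All 7 members, TFCP2L1, listed genes of the fixed pathway lists and the 2 nearest genes of each member could be named. List genes under 1 FPKM in both libraries were to be given by count. HOXB2, FRZB, WIF1, WNT4 and LGR6 are named although below it, after their values were seen. DKKL1 and APCDD1L, which are on no list, were also named after their values were seen. Promoters came from RefSeq (GRCh38.p14) and shared words from GENCODE 29, by symbol or gene ID; these builds differ from hg19, so no coordinates were joined. Tools were Python 3.11.15, numpy 2.4.6, pandas 2.3.3, scipy 1.17.1 and matplotlib 3.10.9.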

Additional observations from a re-analysis of the deposited data

How the results depend on the processing

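No direction of a member changed with levels scaled to equal sums over the listed genes. Nor did one change with pseudocounts of 1 and 0.01 FPKM, the deposited log2 ratio or inferred reads. None of these settings could reverse a direction. Every listed gene differs at least 2-fold as deposited, which the equal-sums factor of 0.677 cannot undo. A pseudocount is added to both levels, and the deposited ratio and inferred reads follow the same levels. With a pseudocount of 1 FPKM the log2 ratios were 5.61 for SP5, 1.24 for AXIN2, 4.79 for DKK4, 3.42 for APCDD1 and 2.25 for CDX1, the median over members was 2.25, 1 pathway gene rather than 2 was at least 2-fold lower, and 364 rather than 710 listed genes were. With equal sums the log2 ratios were 6.93 for SP5, 0.81 for AXIN2, 3.61 for APCDD1, 0.55 for TCF7, 4.61 for CDX1 and -1.77 for MYC, the median over members was 3.61, and 393 rather than 819 listed genes were at least 2-fold higher. The mean over members was 3.72. At 4-fold, 0 members were lower, 10 pathway genes were higher and 1 lower, and 240 listed genes were higher and 107 lower. Without the filter on level, 5 pathway genes were at least 2-fold lower. Counting either CTTTGAT or its 3 variants gave 2 member windows in place of 1. Wilson intervals left TCF7 reaching below 2 and the other members wholly beyond 2-fold. TCF7 reads taken from the levels alone, a setting chosen after seeing the data, gave a lower limit of 1.97, also below 2. Depth limits DKK4 and CDX1 to lower bounds and leaves SP5 with 10 scramble reads. No paired analysis was possible because each group had 1 library. No replicate could be left out for the same reason.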
